A study of Mus musculus with 6 samples.

Results

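The nuclear genes of the respiratory chain were followed in whole grafts of B16F10, a pigmented mouse melanoma line, grown in the tongue. They were all protein-coding genes whose symbols name the subunits of complex I (Ndufa, Ndufb, Ndufc, Ndufs and Ndufv), complex II (Sdha to Sdhd), complex III (Uqcr), complex IV (Cox4 to Cox8) and complex V (Atp5), except Ndufa4l2. The rule used names and no measured value, but it was chosen with earlier results of these data known. It gave 93 gene IDs under 92 symbols, of the 55487 gene IDs counted. Of these, 36 belonged to complex I, 8 were assembly factors of complex I that share its gene prefix, 4 belonged to complex II, 8 to complex III, 19 to complex IV and 18 to complex V. The filter on low counts passed 89 of the 93. Those left out were Cox7b2, Cox8c and a second ID of Atp5o, each with 0 counts in all 6 libraries, and Cox6b2, with 0 to 4 counts.

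RNA sequencing covered 3 grafts in which the nociceptive nerves reaching the lymph nodes were inhibited and 3 control grafts, all in wild-type C57BL/6J mice. An AAV2/retro vector, which travels backwards along axons, had been put into the cervical nodes 6 weeks before the tumour cells, its name giving Trpv1 as the element that directs it to nociceptors and its cargo being either hM4D(Gi) fused to mCherry, a receptor that silences neurons once its designer ligand binds, or mCherry alone. Deschloroclozapine, that ligand, was given 2 times per day for 12 days. The control labels speak of vehicle treatment while the design text gives the ligand to both vectors, so whether controls had the ligand is unclear. The labels leave unsaid whether each library is a separate animal, and the spread behind the p-values may therefore be technical. The labels give no age of the mice.

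Oxidative phosphorylation passes electrons from NADH through complex I, or from succinate through complex II, to complexes III and IV, where oxygen is reduced, and the proton gradient this builds drives ATP synthase, complex V. Most subunits come from nuclear genes used in nearly all cells, while the catalytic cores of complexes I, III and IV also need proteins of the mitochondrial genome. Complex IV is the exception in having tissue forms: Cox6a2, Cox7a1 and Cox8b replace Cox6a1, Cox7a2 and Cox8a in striated muscle, and Cox7a1 and Cox8b are also used in brown fat.

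Library totals ran from 14477277 to 20972494 counts, so that 1 count was worth 0.0476 to 0.0701 CPM (counts per library total after TMM scaling). Muscle marker RNA was unequal between the grafts: the 24 skeletal muscle markers summed to 4560, 4060 and 2567 CPM in inhibition libraries 1 to 3 and to 990.3, 2203 and 1345 CPM in control libraries 1 to 3. The log2 fold change was positive for all 23 tested markers (median 1.33), none passed at an adjusted p under 0.05, 12 were higher at an unadjusted p under 0.05 in edgeR, where 8.36% of all genes were, and DESeq2 called 9 higher, where 2.23% of all genes were. The 8 melanoma markers summed to 23150 to 28010 CPM in inhibition libraries and to 16470 to 24260 CPM in control libraries, control 1 being the lowest. Chi-square per degree of freedom was 7.65 to 17.9 between libraries of the same group and 10.2 to 39.2 across groups, so no library repeated another. Control 2, the control with the most muscle marker RNA, lay closest to control 3 (9.92), and closer to inhibition 3 (10.2) than to control 1 (17.5).

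The 250 bases before the start site are shown for 2 muscle isoforms, Cox8b and Cox7a1, and 2 ubiquitous forms, Cox8a and Cox6a1. They come from RefSeq on GRCm38.p6 and are read 5′ to 3′ on the strand of the gene. Only Cox8b and Cox8a are partners of each other. No window was found for Cox6a2, and Cox7a2 is not shown, so these windows do not contrast muscle with ubiquitous forms as a class. Capitals mark matches to any of 5 motifs searched on both strands: the NRF-1 core GCNTGCGC, the ETS site CCGGAAG of NRF-2 (GABP), the ERR site AAGGTCA, the myogenic E-box CAGCTG and the MEF2 site (CTA and TAG with 4 bases between them).
Cox8b, chr7:140900447-140900696, minus strand: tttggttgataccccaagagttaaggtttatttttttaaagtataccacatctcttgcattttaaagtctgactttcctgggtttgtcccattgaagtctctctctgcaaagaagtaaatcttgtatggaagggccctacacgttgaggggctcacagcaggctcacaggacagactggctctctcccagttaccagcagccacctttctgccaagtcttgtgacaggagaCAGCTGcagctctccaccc
Cox7a1, chr7:30183921-30184170, plus strand: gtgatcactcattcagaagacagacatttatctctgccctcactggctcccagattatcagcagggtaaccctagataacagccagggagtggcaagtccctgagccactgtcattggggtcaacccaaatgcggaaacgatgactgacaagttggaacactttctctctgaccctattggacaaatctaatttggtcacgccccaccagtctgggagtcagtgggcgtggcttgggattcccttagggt
Cox8a, chr19:7217617-7217866, minus strand: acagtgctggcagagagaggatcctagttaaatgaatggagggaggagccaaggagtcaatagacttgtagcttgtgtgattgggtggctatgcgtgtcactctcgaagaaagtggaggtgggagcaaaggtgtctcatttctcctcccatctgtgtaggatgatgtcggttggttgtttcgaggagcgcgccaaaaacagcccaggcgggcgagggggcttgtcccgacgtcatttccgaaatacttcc
Cox6a1, chr5:115348959-115349208, minus strand: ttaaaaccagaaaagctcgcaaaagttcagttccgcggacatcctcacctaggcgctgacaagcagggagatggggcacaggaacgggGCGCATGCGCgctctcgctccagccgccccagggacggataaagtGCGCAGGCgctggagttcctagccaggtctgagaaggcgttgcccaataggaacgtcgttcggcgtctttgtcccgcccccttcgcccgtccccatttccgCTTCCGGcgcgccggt

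The window of Cox8b held 1 E-box, starting 19 bases before the start site, and none of the other motifs. That of Cox6a1 held NRF-1 cores starting 162, 160 and 117 bases before the start site, the first 2 of which overlap, and an ETS site at 16 bases. Cox7a1 and Cox8a had no match in their windows. Over the 79 windows found for 74 of the member genes, the NRF-1 core stood in 20 (25.3%), against 8.3% of all 32851 windows of this length. ETS sites stood in 14 member windows (17.7%, against 6.91% of all), ERR sites in 5 (6.33%, against 4.08%), E-boxes in 6 (7.59%, against 13.0%) and the MEF2 site in 1, that of Cox5b (1.27%, against 3.2%). Member windows had a median GC content of 56.4% and all windows 52.4%, and a match is a description of the letters, not of binding.

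The level of the chain was high and unequal between complexes. Member counts made up 1.31 to 1.46% of a library. On the scale of CPM per kb of mRNA, which allows genes to be compared, the median gene of complex IV stood at 223.6, of complex V at 193.2, of complex III at 184.0, of complex II at 146.4 and of complex I at 78.8, while the complex I assembly factors stood at 12.9. Atp5b, the catalytic beta subunit of ATP synthase, was highest of all at 1024 CPM per kb. Ndufa4, named for complex I and found in complex IV, led its complex with 697.5. Uqcrq, a small subunit of complex III, led with 434.4, Sdhb, the iron-sulfur subunit of complex II, with 271.9, Ndufa6, an accessory subunit of complex I, with 227.6, and Ndufaf8, an assembly factor, with 31.5. At the low end were Ndufb2 with 2.56, Atp5s with 6.06 and the Cox4i2 isoform with 0.965 CPM per kb. The low value of Ndufb2 is uncertain, since it rests on an annotated length of 2413 bases and exons shared with other genes. Atp5s was put with complex V by its name and is classed here as another factor, not as a subunit.

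**Figure D1:**
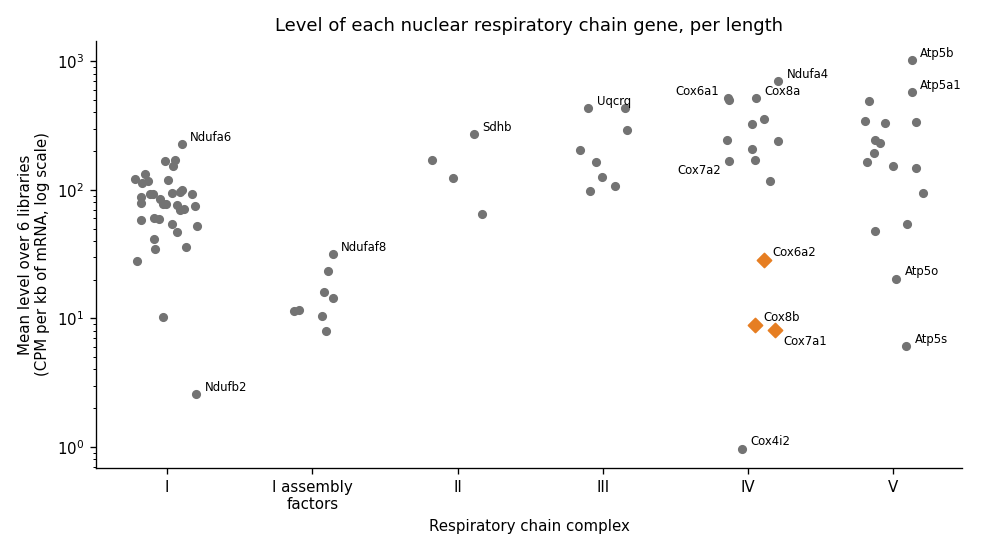
Mean level of each of the 89 tested genes over the 6 libraries, in CPM per kb of mRNA on a log axis, by complex. Points are genes, horizontal scatter within a complex carries no meaning, and orange diamonds are the muscle isoforms Cox6a2 (28.6), Cox8b (8.92) and Cox7a1 (8.11), which lie below every gene of complexes II and III.

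No member passed in either direction at an adjusted p under 0.05 in edgeR, where 0.0383% of the 15666 genes tested were called, 0.0319% higher and 0.00638% lower. Most members sat slightly lower in inhibition grafts: 62 of 89 (69.7%) had a negative log2 fold change, against 49.0% of all genes, and the median was -0.09, against 0.00 over all genes. At an unadjusted p under 0.05, 11 members were lower (12.4%, against 7.0% of all genes) and 4 were higher (4.49%, against 8.36%). The 3 libraries of each group did not overlap for 17 members that were lower (19.1%, against 11.0% of all genes) and 2 that were higher (2.25%, against 10.2%). The number lower at that p was 21 without control 2, 18 without inhibition 2 and 6 without control 3, and 1 with the muscle marker level as a covariate. The number higher was 0 without inhibition 2 and with that covariate, 1 without inhibition 1 or control 3, and 2 without control 1 or control 2. Shares of all genes at that p are not given for these other fits, so these counts have no background beside them. The covariate fit has less power, and over all genes it called 0 higher and 0 lower at an adjusted p under 0.05. DESeq2 called 3 members lower, Cox7a2l, Sdhb and Ndufv3 (3.37%, against 1.23% of all genes), and 0 higher, where 2.23% of all genes were.

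The sizes were small. For 84 of 89 members the absolute log2 fold change was under 0.35 (94.4%, against 76.5% of all genes), and its median was 0.11, against 0.15 over all genes. The 5 beyond it were Ndufb2, Cox4i2 and the 3 muscle isoforms, all with positive values. Cox7a2l, at -0.346, lay just inside, so the absence of negative values beyond the limit depends on where it is set. The members and all genes were not matched for expression level. Across the members, mRNA length and log2 fold change had a Spearman rho of 0.06 (n = 89 genes of the same libraries).

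**Figure D2:**
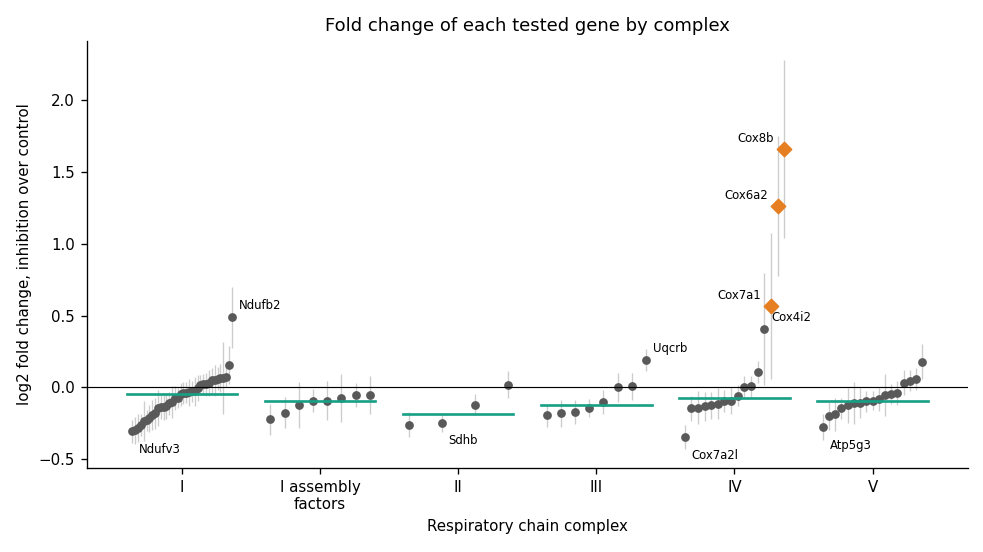
Log2 fold change of inhibition over control for the 89 tested genes, ordered by value within each complex; bars are 1 standard error, green lines the median of each complex. The muscle isoforms (orange diamonds) reach 1.66 in Cox8b, while most other genes lie between -0.35 and 0.35.

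The largest values of all members were those of the muscle isoforms of complex IV, and none of the 3 passed the test. Cox6a2, the muscle and heart form of subunit VIa (chr7:128205435-128206387), had 29.9, 37.0 and 15.5 CPM in the inhibition libraries and 6.76, 18.5 and 9.15 CPM in the controls. Its lowest inhibition graft lay under control 2, so the groups overlapped, and the log2 fold change was 1.27 (SE 0.49, edgeR adjusted p = 0.312). Exons of Cox6a2 overlap the integrin gene Itgad on the other strand, and the strand setting of the counts is not given, so its reads may include some of that gene.

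Cox8b, the muscle form of subunit VIII (chr7:140898945-140900446), had 4.98, 7.18 and 2.48 CPM in the inhibition libraries, against 0.422, 2.67 and 1.55 CPM in the controls. Inhibition 3 lay just under control 2, and control 1 rested on 7 counts. The log2 fold change was 1.66 (SE 0.62, adjusted p = 0.275; DESeq2 adjusted p = 0.0652). Cox7a1, the muscle form of subunit VIIa (chr7:30184144-30186078), had 3.99, 7.12 and 1.62 CPM in the inhibition libraries, against 2.23, 3.97 and 2.42 CPM in the controls. Here inhibition 3 was the lowest of all 6 grafts. Its log2 fold change was 0.57 (SE 0.51, adjusted p = 0.620) and became -0.06 without inhibition 2.

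The ubiquitous partners were far more abundant and had fold changes near 1. Cox6a1 had 311.5, 313.7 and 294.5 CPM in the inhibition libraries, against 274.4, 269.1 and 309.9 CPM in the controls (log2 fold change 0.11, SE 0.08, adjusted p = 0.517). Cox7a2 had 105.4, 113.5 and 98.5 CPM, against 130.0, 95.6 and 124.4 CPM in the controls (-0.14, SE 0.12, adjusted p = 0.574). Cox8a had 280.6, 281.8 and 266.6 CPM, against 291.4, 274.8 and 318.8 CPM in the controls (-0.09, SE 0.08, adjusted p = 0.567). In each of the 3 the groups overlapped. Per kb of mRNA, Cox6a1 exceeded Cox6a2 by 13.3-fold in inhibition and 29.6-fold in control grafts, Cox7a2 exceeded Cox7a1 by 16.6-fold and 27.0-fold, and Cox8a exceeded Cox8b by 37.1-fold and 124.9-fold.

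Cox4, the largest nuclear subunit of complex IV, has a second form, Cox4i2, known from lung and from oxygen sensing rather than from muscle. It had 0.771, 1.02 and 0.619 CPM in the inhibition libraries, against 0.483, 0.651 and 0.678 CPM in the controls, from 8 to 20 counts per library. Cox4i1 had 245.1, 257.9 and 241.4 CPM in the inhibition libraries, against 239.3, 236.8 and 266.3 CPM in the controls. Both overlapped between groups, with log2 fold changes of 0.41 (SE 0.39, adjusted p = 0.642) and 0.00 (SE 0.07, adjusted p = 0.986).

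**Figure D3:**
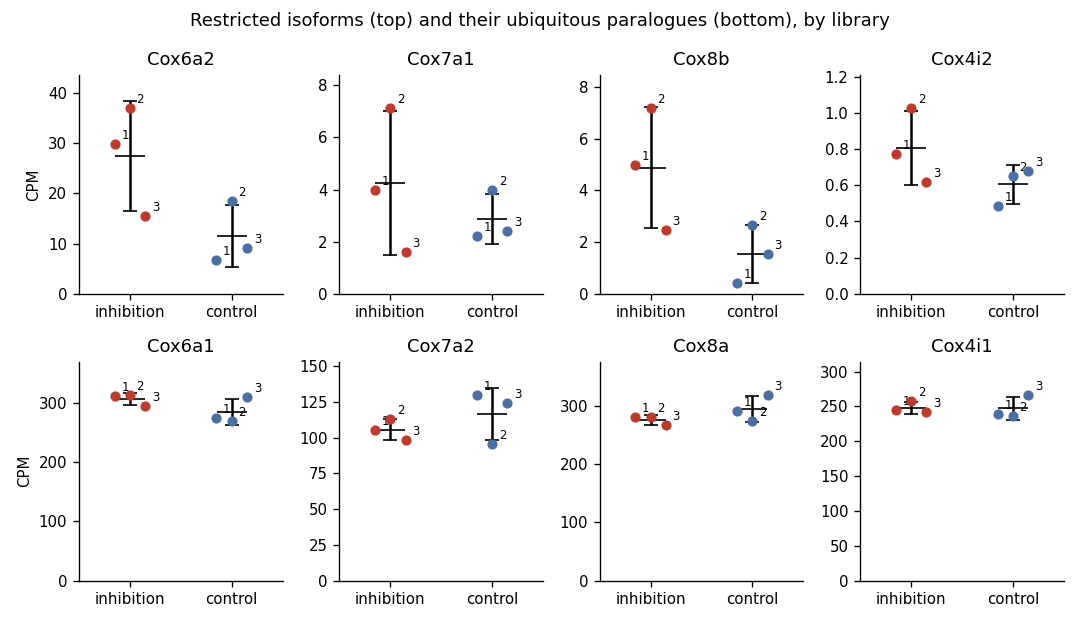
Level in CPM of the 3 muscle isoforms and Cox4i2 (top) and of their ubiquitous paralogues (bottom) in each library, numbered by replicate, with inhibition left of control; bars are the mean and SD (n = 3 per group) and axes start at 0. For Cox6a2 and Cox8b inhibition 1 and 2 stand above all controls and inhibition 3 falls below control 2, while all paralogues overlap between groups.

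The ratio of each isoform to its paralogue within a library does not depend on how libraries are scaled. Muscle Cox6a2 made up 8.74, 10.6 and 5.01% of the counts of the Cox6a pair in the inhibition libraries, against 2.40, 6.43 and 2.87% in the controls. The means were 8.10 ± 2.83% and 3.90 ± 2.20% (SD, n = 3 each), and the log2 ratio differed by 1.19, a 2.28-fold difference. For Cox8b the share was 1.72 ± 0.781% of the pair in inhibition and 0.530 ± 0.410% in control grafts, a difference of 1.94 on the log2 scale (1.22 without control 1). For Cox7a1 it was 3.73 ± 2.15% and 2.53 ± 1.27%, a difference of 0.50, and for Cox4i2 0.322 ± 0.0703% and 0.243 ± 0.0375%, a difference of 0.38. Two-sided exact permutation tests gave p = 0.2 for the Cox6a, Cox8 and Cox4 pairs and p = 0.7 for the Cox7a pair (0.267 and 0.7 after Benjamini-Hochberg adjustment over the 4), where 3 against 3 cannot go below 0.1. None of the 4 differences could be told from the spread between grafts.

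Cox6a2 and Cox8b were highest in inhibition 1 and 2 and lowest in control 1 and 3, and so were the muscle markers given above. In bulk RNA, fewer cells of a type and less RNA per cell cannot be told apart. Per 1000 CPM of summed muscle markers, a measure chosen after both were seen, Cox6a2 stood at 6.55, 9.11 and 6.05 CPM in the inhibition libraries, against 6.83, 8.39 and 6.80 CPM in the controls. The group means were 7.24 ± 1.65 and 7.34 ± 0.909 (SD, n = 3 each), a log2 difference of -0.04 (exact permutation p = 0.8). Cox8b stood at 1.09, 1.77 and 0.965 CPM per 1000 in inhibition, against 0.427, 1.21 and 1.15 in control libraries, a log2 difference of 0.55 (exact p = 0.6) that came to 0.06 without control 1. Cox7a1 stood at 0.876, 1.75 and 0.631, against 2.25, 1.80 and 1.80 in the controls. Every control thus lay above every inhibition graft for Cox7a1 on this measure, but inhibition 2 (1.755) nearly tied with control 3 (1.799) and control 2 (1.801). The group means differed by -0.97 on the log2 scale. The exact permutation p was 0.1, the smallest that 3 against 3 allows (0.3 adjusted over the 3 isoforms).

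With the muscle marker level as a covariate in the fit across all genes, the log2 fold change of Cox6a2 was -0.11, of Cox8b -0.01 and of Cox7a1 -0.94. Markers of other tissues that use these isoforms were few: of 5 heart markers only Nppb was tested, at 16.3 to 17.3 CPM in inhibition and 9.71 to 22.4 CPM in control libraries, and Myh6, Myl7, Nppa and Tnni3 reached at most 0.41 CPM. The brown fat genes Ucp1, Cidea and Elovl3 summed to at most 0.846 CPM in any library, with Ucp1 at no more than 0.0603. The 4 markers of fat of any kind summed to at most 0.286 CPM, with leptin at 0 counts.

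**Figure D4:**
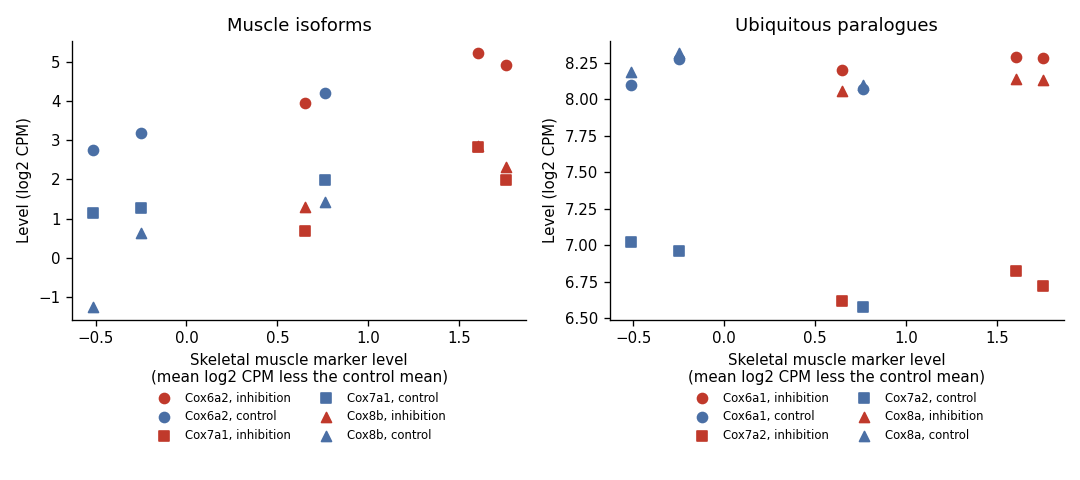
Level of the muscle isoforms (left) and of their ubiquitous paralogues (right), in log2 CPM, against the skeletal muscle marker level of each graft (mean log2 CPM of the markers less the control mean). Red is inhibition and blue control; Cox6a2 and Cox8b are highest in the 2 grafts with most muscle marker RNA (inhibition 1, at 1.75, and inhibition 2) and lowest in control 1 (-0.51), while Cox7a1 is lowest in inhibition 3. The 2 vertical axes differ, and each paralogue spans under 1 log2 unit.

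Complex I takes electrons from NADH. Its 36 tested subunits had a median log2 fold change of -0.04, with 24 negative. At an unadjusted p under 0.05, 6 were lower, where 7.0% of all genes were, and 1 was higher, where 8.36% were. The 7 nuclear core subunits, which carry the flavin and the iron-sulfur clusters, had a median of -0.04 and the 29 accessory subunits -0.05. Ndufv3, a small accessory subunit of the NADH-oxidising arm (chr17:31520115-31531331), had 92.5, 102.8 and 97.7 CPM in the inhibition libraries, against 129.3, 112.9 and 120.1 CPM in the controls. All 3 inhibition grafts lay under all 3 controls, at a log2 fold change of -0.31 (SE 0.08, edgeR adjusted p = 0.175; DESeq2 adjusted p = 0.0457). Also lower at an unadjusted p under 0.05 were Ndufs3 (-0.30) and Ndufv1 (-0.23), core subunits, and the accessory subunits Ndufb6 (-0.28), Ndufa9 (-0.26) and Ndufa7 (-0.22). The exons of Ndufs3, Ndufb6 and Ndufa9 overlap a gene on the other strand.

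In the other direction stood Ndufb2, a membrane-arm subunit, with 5.82, 8.82 and 7.0 CPM in the inhibition libraries, against 5.31, 4.62 and 5.52 CPM in the controls. The groups did not overlap, at a log2 fold change of 0.49 (SE 0.21, adjusted p = 0.317), but the annotated gene shares exons with Braf and 2 other genes, so its value is uncertain. Ndufa6, the most abundant per length, had 79.2, 90.9 and 87.3 CPM, against 85.4, 85.6 and 93.4 CPM in the controls (-0.04, SE 0.08, adjusted p = 0.840), with groups that overlapped. The 8 assembly factors, which build complex I and are not kept in it, all had negative values, from -0.22 to -0.05 with a median of -0.09, and none had an unadjusted p under 0.05. Ndufaf8, with the smallest p of them, had 16.5, 18.4 and 17.7 CPM in the inhibition libraries, against 21.5, 19.1 and 20.8 CPM in the controls (-0.22, SE 0.11, adjusted p = 0.353), and its groups did not overlap.

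Complex II is the one complex encoded wholly in the nucleus, and also an enzyme of the tricarboxylic acid cycle. Its median log2 fold change of -0.18 was the lowest of the 5 complexes, over 4 genes only. Sdhb (chr4:140961203-140979193) had 287.5, 292.8 and 272.4 CPM in the inhibition libraries, against 347.2, 324.5 and 338.6 CPM in the controls. The groups were apart, with means of 284.2 ± 10.6 and 336.7 ± 11.4 CPM (SD, n = 3 each) and a log2 fold change of -0.24 (SE 0.07, edgeR adjusted p = 0.186; DESeq2 adjusted p = 0.0434). With the muscle level as a covariate the value was -0.24, but its unadjusted edgeR p was 0.0804, against 0.00541 without it (adjusted p = 0.9997 with it). Sdhd, a membrane anchor, had 202.0, 189.1 and 180.1 CPM, against 240.5, 202.9 and 239.6 CPM in the controls (-0.26, SE 0.09, adjusted p = 0.228), and its groups were apart too. Sdha, the flavoprotein, had 388.9, 346.7 and 340.8 CPM, against 348.3, 320.5 and 393.1 CPM in the controls (0.02, SE 0.09, adjusted p = 0.937). Its groups overlapped fully, so the subunits of 1 enzyme gave unlike values, a difference between genes that was not tested.

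Complex III hands electrons to cytochrome c, and its 8 genes had a median of -0.12, with 5 negative. Uqcrq had 187.3, 222.7 and 202.5 CPM in the inhibition libraries, against 238.2, 229.6 and 233.4 CPM in the controls (log2 fold change -0.19, SE 0.08, adjusted p = 0.286). Uqcrb, another small subunit, had 72.5, 73.4 and 68.3 CPM, against 64.4, 57.5 and 65.6 CPM in the controls (0.19, SE 0.08, adjusted p = 0.298). Both had groups that did not overlap, in opposite directions. Exons of Uqcrb overlap a predicted gene on the other strand.

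In complex IV without the muscle isoforms, 9 of 13 tested genes had negative values and the median was -0.09. Cox7a2l, a member of the Cox7a family that joins complexes III and IV into a supercomplex and of which C57BL/6 mice carry a shortened form (chr17:83501918-83517330), had 106.6, 123.5 and 113.9 CPM in the inhibition libraries, against 153.4, 135.4 and 148.5 CPM in the controls. The 3 inhibition grafts lay under the 3 controls, with means of 114.7 ± 8.46 and 145.8 ± 9.30 CPM (SD, n = 3 each). Its p was the smallest of all members, yet it did not pass in edgeR (log2 fold change -0.35, SE 0.08, adjusted p = 0.166) while DESeq2 called it (adjusted p = 0.0212). With the muscle level as a covariate the value was -0.24 (edgeR adjusted p = 0.9997), and without any 1 library it ran from -0.41 to -0.31. Ndufa4 had 308.3, 338.9 and 284.8 CPM, against 344.3, 293.6 and 355.2 CPM in the controls (-0.09, SE 0.10, adjusted p = 0.669), with overlap.

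Complex V turns the gradient into ATP. Its 17 tested genes had a median of -0.09, with 13 negative. In the F1 head, where ATP is made, Atp5b had 2114, 1879 and 1965 CPM in the inhibition libraries, against 1914, 1803 and 2101 CPM in the controls (0.03, SE 0.08, adjusted p = 0.866). The 3 c ring genes Atp5g1, Atp5g2 and Atp5g3 encode one and the same mature protein, and all 3 had negative values, with a median of -0.15. Atp5g3, the most abundant of them, had 311.5, 328.6 and 326.9 CPM, against 423.5, 338.1 and 408.8 CPM in the controls. All inhibition grafts lay under all controls, control 2 by little, at -0.28 (SE 0.09, adjusted p = 0.227), and the value was -0.05 with the muscle level as a covariate. Atp5o, a peripheral stalk subunit, had 15.9, 20.3 and 18.2 CPM, against 16.2, 16.1 and 15.9 CPM in the controls (0.18, SE 0.12, adjusted p = 0.50), and is uncertain because 2 IDs share its exons.

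By library, the groups overlapped in most complexes. The mean log2 level of complex V, less the control mean, was -0.09, 0.01 and -0.14 in the inhibition libraries and 0.01, -0.06 and 0.06 in the controls. Complex I gave -0.09, 0.02 and -0.11, against 0.00, -0.06 and 0.06 in the controls. In complexes I, III, IV (without the muscle isoforms) and V, inhibition 2 was the highest of its group and control 2 the lowest of its own. The summed level of all members was 13420 ± 329.0 CPM in inhibition and 14010 ± 834.5 CPM in control grafts (SD, n = 3 each).

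**Figure D5:**
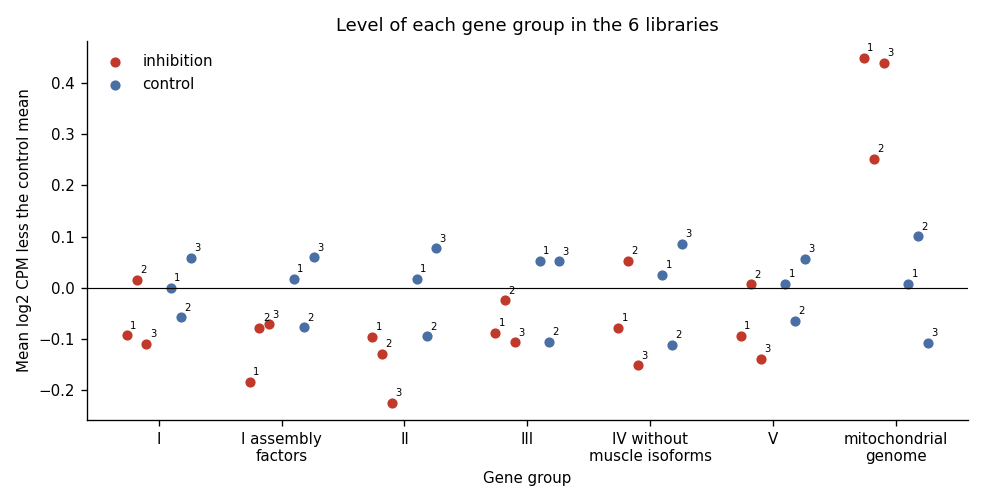
Mean log2 CPM of the genes of each complex, complex IV without its 3 muscle isoforms, less the control mean, in each library (numbered), with inhibition (red) left of control (blue), and of the 13 protein genes of the mitochondrial genome at the right. The nuclear groups drawn stay between -0.22 and 0.09 (complex IV with the muscle isoforms, not drawn, reached 0.39 in inhibition 2), while the mitochondrial genes reach 0.25 to 0.45 in inhibition grafts and -0.11 to 0.10 in controls. The mean weighs all 13 equally, among them mt-Atp8 at 0.242 to 1.239 CPM.

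The subunits encoded by the mitochondrial genome gave values of the other sign. The log2 fold change was positive for all 13 (median 0.31), 9 were higher at an unadjusted p under 0.05 (8.36% of all genes were), none passed in edgeR, and DESeq2 called 4 higher (2.23% of all genes). mt-Nd2, a complex I subunit, had 3343, 2604 and 2853 CPM in the inhibition libraries, against 1796, 2264 and 2027 CPM in the controls (0.53, SE 0.11, edgeR adjusted p = 0.162). mt-Cytb, the cytochrome b of complex III, had 9411, 8721 and 9667 CPM, against 6947, 7824 and 7273 CPM in the controls (0.33, SE 0.08, adjusted p = 0.166). The groups were apart for both.

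Other genes of the pathway, from lists chosen with earlier results known, had no call in edgeR. Of 18 genes of the tricarboxylic acid cycle and pyruvate dehydrogenase, 2 were lower at an unadjusted p under 0.05 (7.0% of all genes were): Dld, the shared E3 subunit of the mitochondrial dehydrogenase complexes (log2 fold change -0.24, adjusted p = 0.216), and Pdhb, a subunit of pyruvate dehydrogenase (-0.15, adjusted p = 0.304). The list's median was -0.03. The 5 electron carriers had a median of -0.05 and none under that p, with Etfdh at -0.15 (adjusted p = 0.437) and Etfa at -0.08 (adjusted p = 0.629). Of 33 tested assembly factors of complexes II to V, 1 was higher at that p (8.36% of all genes were), Bcs1l, which inserts the Rieske protein into complex III (0.48, adjusted p = 0.275), and the median was -0.05. Cmc1, an assembly factor of complex IV, had the smallest p of those with negative values (-0.30, adjusted p = 0.353).

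Regulators of mitochondrial biogenesis had a median of 0.07 over 14 tested genes, and 3 were higher at an unadjusted p under 0.05 (8.36% of all genes were). Esrrg, a nuclear receptor of oxidative muscle, was barely expressed, with 2.03, 1.13 and 0.762 CPM in the inhibition libraries, against 0.422, 0.260 and 0.290 CPM in the controls (1.96, SE 0.50, adjusted p = 0.175). Ppargc1b, a coactivator of these genes, had 11.8, 9.43 and 10.8 CPM, against 8.39, 6.83 and 7.26 CPM in the controls (0.51, SE 0.17, adjusted p = 0.224), and the third was Polrmt, the mitochondrial RNA polymerase (0.23, adjusted p = 0.281). Groups were apart for all 3, and for Tfam, the mitochondrial transcription factor, in the lower direction (-0.12, adjusted p = 0.464); 10.2% of all genes were apart and higher and 11.0% apart and lower. A list of 6 mitochondrial and oxygen-handling proteins of muscle had a median of 0.25 over 5 tested genes, with Fabp3 at 0.12, Coq10a at 0.25 and Slc25a4 at -0.15. Ckmt2, the muscle mitochondrial creatine kinase, had 38.8, 42.4 and 11.3 CPM in the inhibition libraries, against 3.56, 18.8 and 5.66 CPM in the controls (1.73, SE 0.84, adjusted p = 0.401). Myoglobin (Mb) had 139.5, 153.6 and 57.8 CPM, against 16.2, 70.7 and 25.2 CPM in the controls (1.65, SE 0.71, adjusted p = 0.359). In both, inhibition 3 lay under control 2, as in Cox6a2 and Cox8b. The part of muscle marker level in the values of genes other than the 3 isoforms was not tested beyond the covariate.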

How the data were processed

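The deposited table held raw counts of reads per Ensembl gene for 6 libraries, whole numbers without normalization by the authors. The submitters' processing notes name HISAT2 2.0 and mm10. What program counted the reads, with which annotation and strand setting, is not given in the sources used here, so the 32 members whose exons overlap another gene are less certain. IDs were matched to GENCODE M21 symbols on GRCm38 (55227 of 55487 matched, 260 not), and 13 IDs that matched the names without being protein-coding were left out. Every row named a gene and 0 columns of samples were left unused. Column names speak of denervation and the titles of inhibition; groups follow the titles.

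Genes were filtered with filterByExpr (count minimum 10, total 15), scaled with TMM and compared by edgeR's quasi-likelihood test (edgeR 4.0.16, R 4.3.3), with p-values adjusted after Benjamini and Hochberg over all 15666 genes and calls at an adjusted p under 0.05. Standard errors are the absolute log2 fold change over the square root of F. Isoform ratios (prior count 0.5) were compared by two-sided exact permutation tests, and mRNA length is the median over protein-coding transcripts. Intervals of counting error are not given. For genes with few counts, such as Cox4i2 (8 to 20 counts per library), that error can be as large as the spread between libraries.

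The members and lists were chosen with earlier results of these data known. Named genes were the muscle isoforms with their paralogues, and per complex the most abundant per length and the smallest p in each direction; Sdhd, Ndufs3, Ndufv1, Ndufb6, Ndufa9, Ndufa7, Atp5g1, Atp5g2, Cox5b, Ndufa12, Polrmt, Ppargc1a, Perm1, Tfam, Fabp3, Coq10a, Slc25a4 and the low-end genes were named after their values were seen. Alternatives were other scalings and filters, limma-voom (limma 3.58.1), DESeq2 1.42.0, a looser threshold, leaving out single libraries, a block on the replicate number, the muscle marker level as a covariate and the markers left out before scaling. The muscle isoforms per muscle marker were added after seeing the data.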

Additional observations from a re-analysis of the deposited data

How the results depend on the processing

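Over all genes, 5 were called higher and 1 lower. The counts were 748 and 439 without a filter on low counts, 349 and 192 in DESeq2, 11 and 3 with the replicate number as a block, 26 and 7 at an adjusted p under 0.1, and 0 and 0 in limma-voom and with the muscle level as a covariate. With 1 library left out they ran from 0 to 170 higher and from 0 to 47 lower, the most without inhibition 3. Members called, 0 in each direction in edgeR, were 1 higher (Cox8b) and 4 lower (Cox7a2l, Ndufv3, Ndufs3 and Atp5g3) without the filter, and 0 higher and 3 lower in DESeq2; with 1 library left out they ran from 0 to 0.

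Members higher at an unadjusted p under 0.05, 4 here, numbered 2 without the filter, in DESeq2, with the block and with the muscle markers left out, 0 with the muscle covariate, and 0 to 3 with 1 library left out. Those lower, 11 here, numbered 1 with the covariate and 6 to 21 with 1 library left out. Shares of all genes at that p are not given for these fits. In the fit with the covariate, which has less power, 59 of 89 members were still negative. The median of complex III was 0.00742 with the covariate, and that of the complex I assembly factors ran from -0.179 to -0.0744 with 1 library left out.

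Signs turned with the covariate for Cox6a2 (-0.11), Cox7a1 (-0.94), Cox8b (-0.0118), Cox7a2 (0.0557), Cox4i2 (-0.0482) and Ndufa6 (0.0205), and for Cox4i1 without the filter (-0.00724) and with the markers left out (-0.00446). With 1 library left out the log2 fold change ran from -0.0600 to 0.957 for Cox7a1, from -0.0435 to 0.0539 for Cox4i1, from -0.0910 to 0.00671 for Ndufa6, from -0.0641 to 0.0952 for Sdha and from -0.0321 to 0.0896 for Atp5b, and Cox6a2 per muscle marker from -0.214 to 0.0813. The cause of these turns was not tested.

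The isoform ratios kept their sign under the alternatives run on them: with 1 library left out they ran from 0.90 to 1.64 for Cox6a2, from 0.06 to 1.01 for Cox7a1, from 1.22 to 2.55 for Cox8b and from 0.22 to 0.53 for Cox4i2. The muscle covariate was not applied to the ratios. In the fit of single genes with it, Cox6a2 was -0.11 beside Cox6a1 at 0.11. Cox7a1 was -0.94 beside Cox7a2 at 0.06, and Cox8b was -0.01 beside Cox8a at -0.06. The ratios are therefore not shown to hold at equal muscle marker level. Same-numbered libraries deviated with correlations of -0.18, 0.33 and 0.09, and differently numbered ones with -0.386 to 0.295. Deviations from means of 3 libraries cannot decide whether the numbers pair the grafts. Differenced within numbers, the ratios gave 1.19, 0.50, 1.94 and 0.38 for Cox6a2, Cox7a1, Cox8b and Cox4i2 (exact sign-flip p = 0.25, 0.5, 0.25 and 0.25, the smallest possible being 0.25). Limits: 3 grafts per group, 7 counts of Cox8b and 8 of Cox4i2 in control 1, unknown strand of counting, and muscle marker RNA that differs between grafts, with inhibition 3 (0.651) under control 2 (0.762) on the level used as the covariate.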

Other observations

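Ndufa12, an accessory subunit of complex I, varied between libraries in a way the groups did not follow. It had 59.8, 38.8 and 40.4 CPM in the inhibition libraries, against 35.8, 58.9 and 37.7 CPM in the controls, with 1 library of each group near 59 CPM and the other 4 between 35.8 and 40.4. Its log2 fold change was 0.07 (SE 0.25, edgeR adjusted p = 0.915). The gene was named after its values were seen.

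The regulator Ppargc1a, a coactivator of mitochondrial genes, had 336.2, 243.6 and 256.8 CPM in the inhibition libraries, against 142.9, 255.0 and 274.4 CPM in the controls (log2 fold change 0.31, SE 0.27, edgeR adjusted p = 0.616). Control 1 stood below the other 5 grafts, and the sum of the melanoma markers was lowest in the same library, at 16470 CPM against 23150 to 28010 CPM in the others. Tyrp1, Pmel, Dct, Slc45a2 and Mitf were lowest there. Tyr was lowest in inhibition 3, Mlana in control 2 and Sox10 in inhibition 2. Whether the low Ppargc1a and the low marker sum share a source was not tested. The muscle regulator Perm1 had 10.2, 15.7 and 3.91 CPM in the inhibition libraries, against 4.77, 6.70 and 3.77 CPM in the controls (0.97, SE 0.50, adjusted p = 0.402), and inhibition 3 again lay among the controls. These genes were named after their values were seen.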
